A study of Mus musculus with 15 samples.

Results

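The genes Dnaic1, Dnaic2, Dnali1 and Foxj1 belong to the motile cilium and are 4 of 26156 gene names on the array. They were taken by the gene name that the array files give to each probe, and each of the 4 genes had 1 probe, spotted 1 time on every array. Dnaic1 was chosen from its measured values in these same livers, so its levels are described and no test is given for it. The other 3 genes were taken to see whether further parts of a motile cilium changed with it.

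All livers came from male CD1 mice, an outbred strain. The mice of group C had saline in place of the carcinogen and an empty plasmid. Those of group T had diethylnitrosamine (DEN), a liver carcinogen, with the same empty plasmid. Those of group G had DEN with a plasmid that expresses Gas1, a growth arrest gene. DEN was injected 15 days after birth at 25 µg per g body weight, and the plasmids were given between 28 and 34 weeks of age as 50 µg of DNA per delivery by hydrodynamic injection, which reaches only part of the liver cells. The protocol places liver removal at 35 weeks of age, while the sample labels give an age of 10 weeks. The arrays were single-colour, 15 in number, on 2 slides that each held all 3 groups. Arrays C3 and C4 carried 1 RNA code, as did T4 and T5, and the log2 differences within these pairs had SDs of 0.197 and 0.201, below every other pair of their groups. Each pair was averaged and counted as 1 liver, which left 3 livers of C, 4 of T and 6 of G. Since the labels do not say that the samples are separate animals, the p-values measure the spread between these samples. Between 15707 and 29765 spots per array were well above background, and all 5 hepatocyte marker genes, Alb, Ttr, Apoa1, Cps1 and Tat, were above it on all 15 arrays.

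Axonemal dyneins are motor complexes that stand in rows on the outer microtubule doublets of motile cilia and sperm tails and make them beat. The outer arm holds heavy chains with the motor activity and a pair of intermediate chains, encoded in the mouse by Dnaic1 (now Dnai1) and Dnaic2 (now Dnai2), which are needed for the arm to be assembled. Dnali1 encodes a light intermediate chain of the inner arm, and Foxj1 is the forkhead transcription factor that switches on the motile cilia programme. In liver, hepatocytes carry no cilium and bile duct cells carry a primary cilium, which does not beat.

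The probes lie near the 3′ ends of their transcripts, so a part of each is shown to identify what was measured. Each stretch has 30 of the 60 bases of the probe, read in the sense of its gene, and capitals mark the polyadenylation hexamer where the probe holds it.
Dnaic1: cctctttgcacaAATAAAggccagctggac
Dnaic2: cctttttccagaagcttccagagctcagct
Dnali1: ggcatatttttgtataatttAATAAAcagc
Foxj1: gctaagacttaactggggaaaggatgcccg
In mm9, the build of the array files, the whole probes lie at chr4:41585121-41585180 on the plus strand for Dnaic1 and at chr11:114618891-114618950 on the plus strand for Dnaic2. Those of Dnali1, at chr4:124732591-124732650, and of Foxj1, at chr11:116192214-116192273, lie on the minus strand. With 1 probe per gene, other transcript forms with a different 3′ end were not measured here.

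The Dnaic1 transcript was high in the livers of T, and low in those of C and, less so, of G. The scanner signal of its spot, before any correction, was 52.4, 54.3, 130.6 and 106.9 on the arrays of group C. In group T it was 1732.4, 964.1, 2746.0, 2851.8 and 2687.4. In group G it was 199.9, 120.7, 150.4, 401.7, 140.5 and 187.5. All arrays of group T were brighter than every array of the other groups. The spot was well above background on 14 of 15 arrays, and the exception was array C1.

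**Figure D1:**
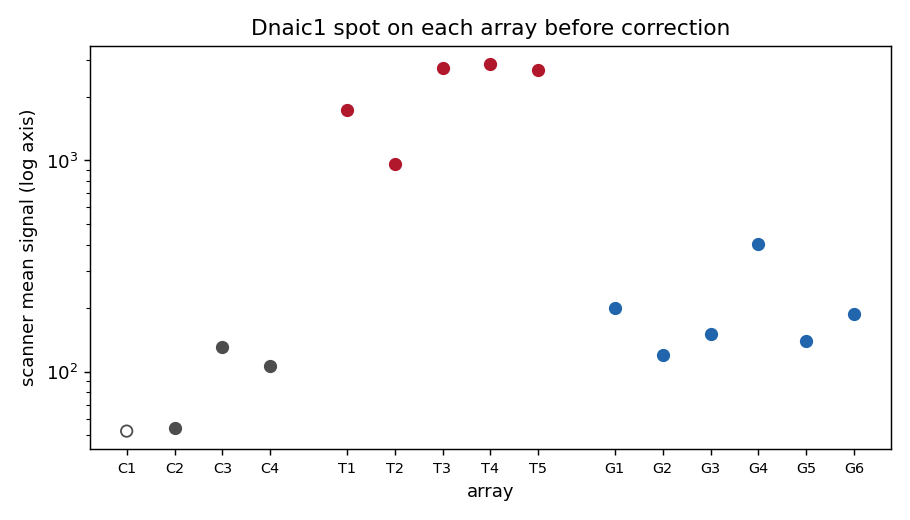
Scanner mean signal of the Dnaic1 spot on each of the 15 arrays, on a log axis, before background correction and normalization. Filled points were well above background and the open point, C1, was not. The 5 arrays of group T lie between 964.1 and 2851.8, above the highest array of group G at 401.7.

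After background correction and normalization, the log2 levels of Dnaic1 were 6.43, 6.89 and 7.03 in the livers of group C. In group T they were 10.60, 10.08, 11.04 and 11.06. In group G they were 7.80, 7.53, 7.11, 8.34, 7.04 and 7.65. The 3 groups did not overlap, in the order C, G, T, but the lowest liver of G lay only 0.0127 above the highest liver of C on the log2 scale, whereas the lowest liver of T lay 1.74 above the highest of G. The means were 6.78 ± 0.31 (SD, n = 3) in C, 10.69 ± 0.46 (SD, n = 4) in T and 7.58 ± 0.48 (SD, n = 6) in G.

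Dnaic1 was thus 3.91 higher in T than in C on the log2 scale, a difference of 15.04-fold, and its rank by size of difference among the 55681 probes, whichever the direction, was 3. Between G and T it fell by 3.11 on the log2 scale, 8.66-fold, with a rank of 4. Between G and C it was 0.80 higher in G, 1.74-fold, with a rank of 513. The difference that remained between G and C was 20.4% of that between T and C on the log2 scale. Livers do not overlap for 16.8% of all probes in T against C, for 2.53% in G against T and for 4.86% in G against C. Nothing is read from these shares for Dnaic1, which was chosen by the same contrasts, and the comparisons share the livers of T, C or G between them.

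The size of these folds depended on the background correction and the scaling. With a smaller offset in the background correction, 16 in place of 50, the T against C difference was 4.44 on the log2 scale, 21.7-fold, and with median scaling it was 4.36, 20.6-fold. With the signal processed by the scanner software it was 5.20, 36.7-fold, the G against T difference was -3.84, 14.3-fold, and the G against C difference was 1.36, 2.56-fold. That signal differs from the main one in both steps, and with it the median of all probes was -0.74 in T against C and -0.52 in G against C. Slide 1 held 2 livers of C, 2 of T and 3 of G, and slide 2 held 2, 3 and 3. The slides are not separate repeats, since both RNA codes with 2 arrays had 1 array on each slide. Within slide 1 alone the difference of T from C was 3.57 and within slide 2 alone it was 4.20. The same slides gave -2.84 and -3.46 for G against T, and 0.72 and 0.75 for G against C. In RNA from whole pieces of liver, more transcript per cell and more cells that carry it cannot be told apart.

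**Figure D2:**
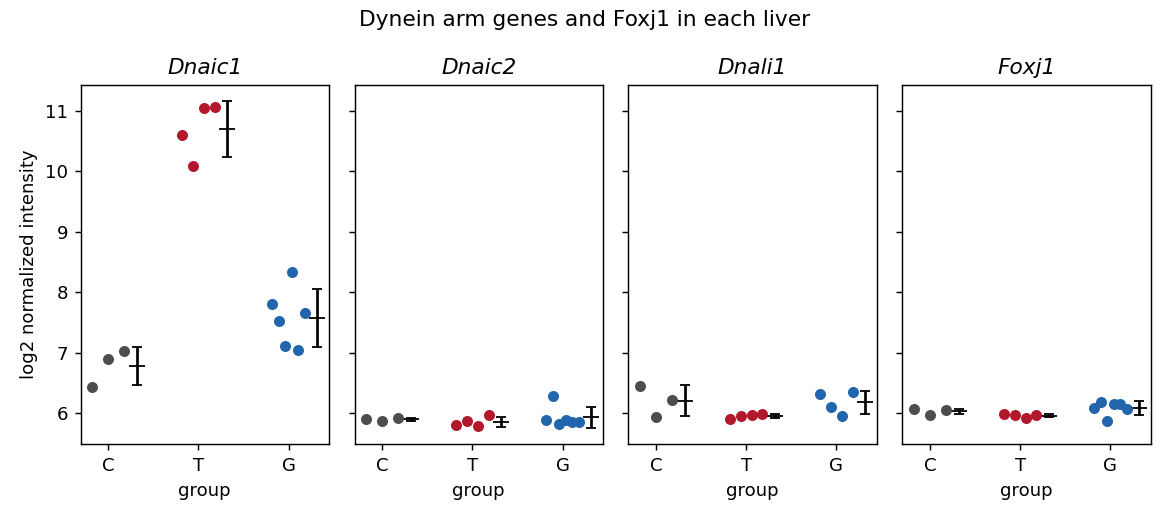
Log2 normalized intensity of the Dnaic1, Dnaic2, Dnali1 and Foxj1 probes, with 1 point per liver and the group mean with its SD as a bar beside the points. Dnaic1 reaches 10.08 to 11.06 in group T, and the other 3 genes stay at or below 6.45 in all livers.

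Dnaic2, the partner of Dnaic1 in the outer arm, was not well above background on any of the 15 arrays. Its log2 levels were 5.91, 5.87 and 5.92 in group C and 5.80, 5.88, 5.79 and 5.96 in group T. In group G they were 5.88, 6.29, 5.82, 5.89, 5.86 and 5.85. The spots of arrays C3 and T5 carried outlier flags and were left out, so liver 3 of C and liver 4 of T rest on 1 array each. The groups overlapped, with liver 2 of G above all other livers. The differences were -0.04 for T against C, 0.07 for G against T and 0.04 for G against C, with adjusted p-values of limma over all probes of 0.886, 0.841 and 0.92. With the processed signal they were -0.95, -0.04 and -0.99, with adjusted p-values of 0.155, 0.984 and 0.13.

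Dnali1, the light intermediate chain of the inner arm, was well above background on 3 arrays, 1 of group C and 2 of group G. Its log2 levels were 6.45, 5.94 and 6.21 in group C, and 5.91, 5.95, 5.97 and 5.99 in group T. In group G they were 6.32, 6.10, 5.95 and 6.35 in livers 1, 2, 3 and 6, and the spots of livers 4 and 5 were left out for their outlier flags. The 4 livers of T lay close together, at the low end of the ranges of C and G, and overlapped with both. The difference of T from C was -0.25 ± 0.12 (SE) on the log2 scale and that of G from T was 0.22 ± 0.11, with adjusted p-values of 0.322 and 0.598 in limma. With the signal processed by the scanner software these differences were -2.05 and 1.24, with adjusted p-values of 0.0925 and 0.582.

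Foxj1, the regulator of the motile cilia programme, was well above background on 2 arrays, both of group G. Its log2 levels were 6.06, 5.98 and 6.05 in group C and 5.98, 5.96, 5.92 and 5.97 in group T. In group G the lowest liver had 5.87 and the highest 6.18. The difference of T from C was -0.07 ± 0.07 (SE) with an adjusted p of 0.624 in limma. That of G from T was 0.13 ± 0.06, with an unadjusted p of 0.0448 and an adjusted p of 0.544. It had the opposite sign to that of Dnaic1. With the processed signal the differences were -1.16 and 1.28, with adjusted p-values of 0.155 and 0.394.

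None of Dnaic2, Dnali1 and Foxj1 passed the adjusted threshold of 0.05 in limma in any of the 3 comparisons. Over all probes, 1.25% passed in T against C, 0.0413% in G against T and 0.122% in G against C. At an unadjusted p under 0.05, 1 of these 9 results passed, Foxj1 in G against T, where 9% of all probes did. The shares of all probes at that limit were 17.7% in T against C and 11.4% in G against C. For none of the 3 genes did the livers of any pair of groups separate. At signals this close to background, a change of level could have been missed.

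The comparison was widened to genes that build or control motile cilia. Of the list, 65 genes other than Dnaic1 had 100 probes on the array, and Dnahc12 and Dnahc14 had none under the names searched. Of these 65 genes, 26 were not above background on any array, and 7 were above it on all 15 arrays. No probe of the list passed the adjusted threshold in limma in T against C, in G against T or in G against C. The shares of all probes that passed were 1.25%, 0.0413% and 0.122%. The methods' t-test gives no separate support, since after adjustment it passed only 0, 0 and 1 of all 55681 probes in these comparisons. At an unadjusted p under 0.05 it passed 16, 11 and 4 of the 100 list probes, beside 15%, 8.92% and 8.71% of all probes.

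In T against C, 14 of the 100 probes had an unadjusted p under 0.05 in limma, 8 higher and 6 lower in T, beside 17.7% of all probes. For 16 of them the livers did not overlap, beside 16.8% of all probes. In G against T, 13 probes had an unadjusted p under 0.05, 3 higher and 10 lower in G, beside 9% of all probes, and 2 did not overlap, beside 2.53%. In G against C, 6 probes had an unadjusted p under 0.05, beside 11.4% of all probes, and 3 did not overlap, beside 4.86%. The median log2 difference of the 100 probes was 0.00 in T against C and -0.01 in G against T, beside 0.00 and -0.01 over all probes.

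**Figure D3:**
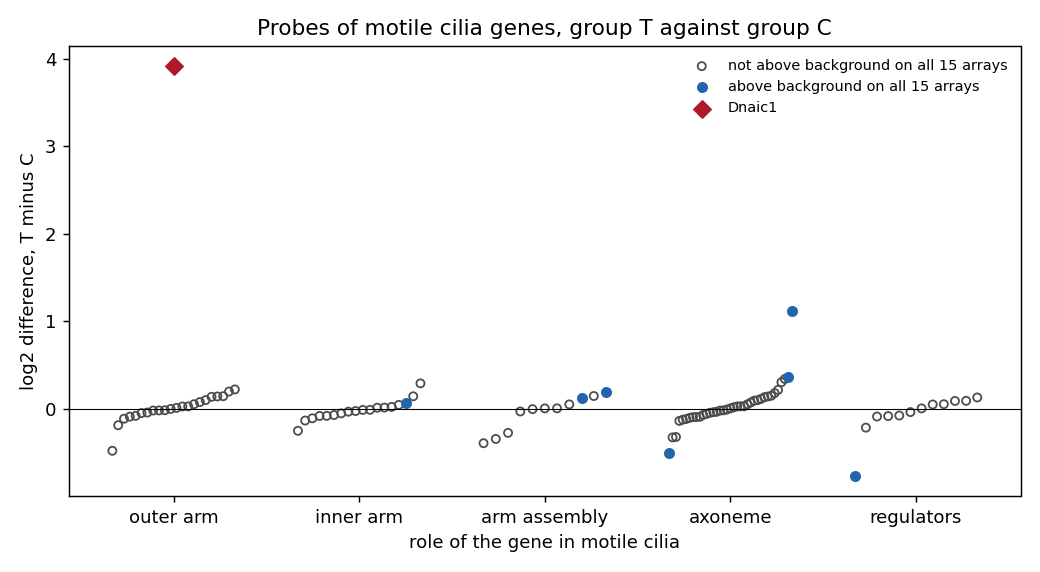
Log2 difference of group T from group C for Dnaic1 (diamond) and for the 100 probes of the other motile cilia genes, placed by the role of the gene. Filled points are the 7 probes above background on all 15 arrays. Dnaic1 lies at 3.91 and the other probes lie between -0.76 and 1.12.

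By role, the 13 outer arm genes beside Dnaic1, heavy chains, docking proteins and light chains, had 22 probes with differences of T from C between -0.48 and 0.22. None of these 22 probes was above background on all arrays. The 10 inner arm genes had 18 probes with differences between -0.25 and 0.29. The 9 genes for factors that assemble the arms in the cytoplasm had 11 probes between -0.39 and 0.19. The 25 genes of the rest of the axoneme, such as radial spokes, tektins and the nexin-dynein links, had 37 probes between -0.50 and 1.12, and the 8 regulators had 12 probes between -0.76 and 0.13. Dnaic1 was chosen for a difference that ranked 3 among all probes. That no role held a probe near it follows from this choice and is not read as a result.

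The 5 list genes with the highest levels among those above background on all arrays were Mcidas, Rsph9, Heatr2, Ccdc164 and Dnaaf2. Mcidas, filed as Gm6320 on the array and encoding a factor that starts multiciliation, had group means of 10.01 in C, 9.25 in T and 9.67 in G. Its livers ranged from 8.15 to 11.13 within group G alone, and its adjusted p was 0.541 in T against C. Rsph9, a protein of the radial spoke head, had levels of 7.62, 6.78 and 8.05 in group C and of 8.55, 7.75, 8.48 and 9.64 in group T. Its difference of T from C was 1.12 with an adjusted p of 0.222 in limma, and that of G from T was -0.88 with an adjusted p of 0.537. The livers of the groups overlapped.

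Heatr2 and Dnaaf2, filed as 1110034A24Rik, encode factors for the assembly of dynein arms, and their differences of T from C were 0.19 and 0.12. Ccdc164, a part of the nexin-dynein links, was 0.37 higher in T than in C and 0.52 lower in G than in T. None of these 3 genes passed the test, with adjusted p-values in limma of 0.279 or more in T against C.

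The count of 0 in T against C depended on the treatment of the arrays. It was 2 with median scaling, 5 when the 15 arrays were taken as separate samples, 3 with the RNA code as a block and 1 with the slide as a term. It was also 1 without liver 3 of C and 1 without liver 3 of G. The probes concerned were of Ccdc164, Gas8, Dnahc17, Ak7, Ccdc40 and Tekt2, named after their values were seen. In the main comparison their differences were 0.37, 0.34, 0.22, 0.31, -0.32 and -0.50 in that order, with adjusted p-values from 0.0636 to 0.325 in limma. Gas8 is a further part of the nexin-dynein links, Dnahc17 an outer arm heavy chain, Ak7 an adenylate kinase of cilia, Ccdc40 a protein that sets the spacing along the axoneme and Tekt2 a tektin. The Dnahc17 probe was not above background on any array. Over all probes, 1.25% passed in the main comparison, and the share is not given for the alternatives above. The counts are therefore not read as a trait of the list.

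Cytoplasmic dynein, which carries cargo along microtubules in nearly all cells, served as a reference that shares the motor design. Its 9 genes had 11 probes, of which 6 were above background on all arrays. None passed the adjusted threshold in limma in any comparison, and the unadjusted p was under 0.05 for 3 probes (27.3%) in T against C, for 1 (9.09%) in G against T and for 3 (27.3%) in G against C, beside 17.7%, 9% and 11.4% of all probes. The differences of T from C lay between -0.21 and 0.34.

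Markers of other ciliated or flagellated cells were then set beside the change of Dnaic1. For multiciliated cells, 7 probes of Foxj1, Rsph1, Sntn, Tekt1 and Dynlrb2 gave a summed log2 level of 8.78 to 8.89 in C, 8.76 to 8.90 in T and 8.76 to 8.85 in G. The summed level of the groups overlapped, and no marker was above background on more than 4 arrays. The markers did not all move the same way in T against C. Dynlrb2 differed by 0.22 and 1 probe of Rsph1 by -0.32, with adjusted p-values of 0.135 and 0.197 in limma. Of the 5 probes for airway and lung genes, Scgb1a1, Sftpb, Sftpc and Sftpa1, 4 were above background on no array, and their sum was 8.29 to 8.39 in C, 8.30 to 8.44 in T and 8.32 to 8.39 in G. The male germ cell genes Prm1, Prm2, Tnp1 and Odf1 gave sums of 8.06 to 8.18 in C, 8.05 to 8.17 in T and 8.05 to 8.17 in G. Of their 4 probes, none was above background on all 15 arrays. Sums of probes this near background say little, and nothing is read from their overlap. None of the probes of these lists passed the test in any comparison. The shares of all probes that passed were 1.25% in T against C, 0.0413% in G against T and 0.122% in G against C. In T against C, 2 airway and lung probes (40%) had an unadjusted p under 0.05 in limma, beside 17.7% of all probes. Both were higher in T. For 2 (40%) the livers did not overlap, beside 16.8%. The male germ cell list held 0 of either kind in T against C.

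Among the liver's own cells, the 5 bile duct genes Krt7, Krt19, Epcam, Sox9 and Cftr gave sums of 8.68 to 8.83 in C and 8.50 to 8.69 in T. In the 5 livers of G with all probes measured, the sums were 8.55 to 8.76. None of the 5 probes was above background on all 15 arrays, and 0 of 5 passed the test in limma. Their differences of T from C lay between -0.31 and -0.04. In T against C, 3 (60%) had an unadjusted p under 0.05 in limma, beside 17.7% of all probes. For 2 (40%) the livers did not overlap, beside 16.8%. The hepatocyte sum was 18.78 to 18.88 in C, 18.20 to 18.71 in T and 18.44 to 18.68 in 5 livers of G. Of the 5 hepatocyte markers only Ttr, a carrier of thyroid hormone, passed in T against C, beside 1.25% of all probes. Ttr was 1.00 lower in T on the log2 scale with an adjusted p of 0.00829 in limma. The markers did not all move the same way. Alb and Cps1 differed by -0.36 and -0.30 in T against C, and Apoa1 and Tat by 0.55 and 0.23. Their adjusted p-values were 0.0782 or more. At an unadjusted p under 0.05, 3 (60%) of the markers passed, 1 higher and 2 lower in T, beside 17.7% of all probes. The part of these shifts in the level of Dnaic1 was not tested.

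The start of Dnaic1 was searched for the sites of factors that drive motile cilia genes. RFX factors bind X-boxes, which hold the same core on each strand, and the forkhead factors include Foxj1. In the RefSeq sequences of GRCm38.p6, 250 bases before to 50 after the gene start, neither the RFX core GTTGCC nor the forkhead core TGTTTAC was present on either strand for Dnaic1 or Dnali1, and Dnaic2 held 1 RFX core. These letters are found in 12.5% and 3.65% of the 32851 promoters of the same length. A whole X-box, written GTTGCNNNGNAAC and chosen after the sequences had been read, was present in Dnaic1 and Dnaic2 and in 0.685% of all promoters. The matches are shown in capitals within 30 bases, read in the sense of the gene, at chr4:41569767-41569796 for Dnaic1 and at chr11:114727378-114727407 for Dnaic2, both on the plus strand.
Dnaic1: gcctgtcgGTTGCTGGGTAACcgcgtcagg
Dnaic2: cggccaggGTTGCTAGGCAACtggtaaact
That of Dnaic1 begins at position -19 from the gene start and that of Dnaic2 at position -33. The Dnaic2 match reads on both strands and overlaps its RFX core. The start that this table gives for Dnaic1 lies inside the span of the gene, which RefSeq begins at position 41569647.

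Of the motile cilia list with Dnaic1, 57 genes had such a sequence. The RFX core was held by 29 of them, 50.9%, and the forkhead core by 4, 7.02%. The X-box letters, chosen after the sequences had been read, were held by 11 genes, 19.3%. Besides Dnaic1 and Dnaic2 these were the dynein heavy chain genes Dnahc9, Dnahc6, Dnahc7a and Dnahc7b, the docking gene Ccdc151, the attachment factor Ccdc103, the tektins Tekt2 and Tekt4 and the light chain Dynlrb2. The 10 genes other than Dnaic1 had 16 probes, with differences of T from C between -0.50 and 0.22, and none passed the test, beside 1.25% of all probes. Of the 16 probes, 11 were not above background on any array. A match describes letters and not a bound site.

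Dnaic1 was next compared with its neighbours on chromosome 4. Its probe ends beside Enho, which encodes adropin, a peptide secreted by the liver, and which is read towards Dnaic1 from the other strand. In RefSeq's GRCm38.p6 the end of Dnaic1, spanning chr4:41569647-41638158, and the end of Enho, spanning chr4:41638144-41640302, share 15 bases. In mm9, as the array files give it, the nearer Enho probe begins 47 bases beyond the Dnaic1 probe, and the pair of Enho probes overlap each other by 43 bases. Both Enho probes hold the same polyadenylation hexamer, shown here on the strand of Enho, at chr4:41585249-41585278 of mm9 on the minus strand.
Enho: tgtttgttgggtAATAAAtggaactatggc

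Enho was higher in T than in C with both probes. With the nearer probe, A_55_P2015753, its log2 levels were 10.42, 10.59 and 11.28 in C and 12.24, 12.48, 12.81 and 12.60 in T, and they ran from 11.18 to 11.95 in G. The livers of C and T did not overlap, which held for 16.8% of all probes. Those of G and T did not overlap either, which held for 2.53%, and those of G overlapped with C. The difference of T from C was 1.77, with an adjusted p of 0.00829 in limma. That of G from T was -0.91 with an adjusted p of 0.13 and that of G from C was 0.86 with an adjusted p of 0.131. With median scaling the differences were 2.75 for T against C, with an adjusted p of 0.0286, and 1.69 for G against C, with an adjusted p of 0.109. The other probe gave 1.70, -0.85 and 0.845, with adjusted p-values of 0.00829, 0.129 and 0.113, and with median scaling it gave 2.71 for T against C and 1.68 for G against C. As the probes overlap, they are not separate measurements of the transcript.

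**Figure D4:**
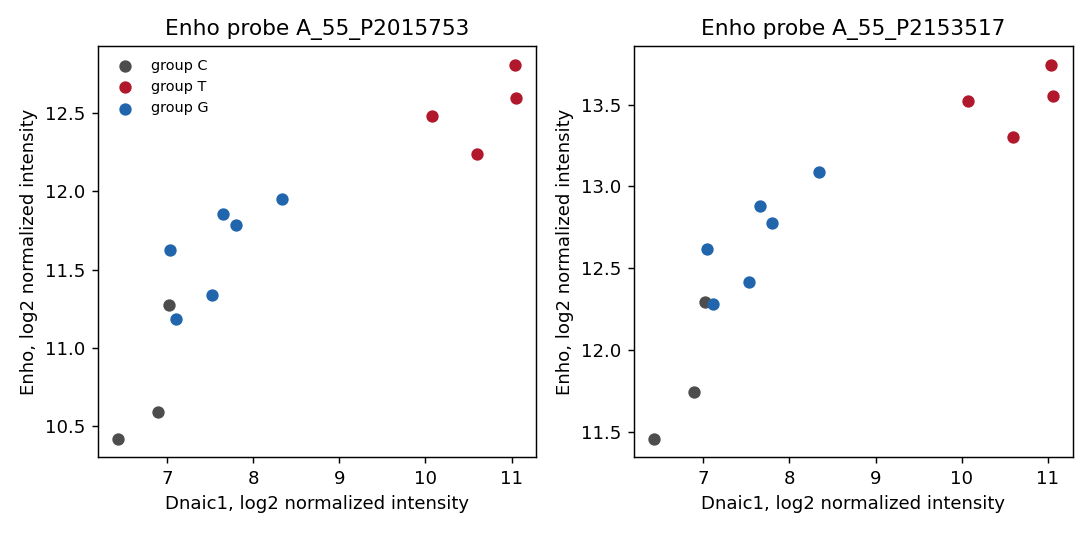
Log2 normalized intensity of Dnaic1 (horizontal) and of each of the overlapping Enho probes (vertical), with 1 point per liver and the groups in colour. The livers of T lie at the upper right of both panels, and those of C at or near the lower left.

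Within 90 kb of the Dnaic1 probe lay 8 other named probes of 6 genes, all on the Enho side. As the probe lies at the 3′ end, this window reaches less far past the start of Dnaic1 than past its end. In RefSeq, Fam219a ends 39 bases before the start of Dnaic1, and none of the 8 probes measures it. In T against C the 2 Enho probes passed the adjusted threshold in limma, beside 1.25% of all probes, and in G against T and in G against C none of the 8 did. The 6 probes outside Enho had differences of T from C between -0.35 and 0.11, with adjusted p-values of 0.101 or more, and of G from T between -0.13 and 0.32. They belong to Cntfr, the receptor subunit for ciliary neurotrophic factor, Dctn3, a subunit of the dynactin complex that works with cytoplasmic dynein, Arid3c, 2810432D09Rik and a transcript without a symbol. Dctn3 was above background on all 15 arrays and differed by -0.02 in T against C. Probes farther away are not reported here as a group.

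**Figure D5:**
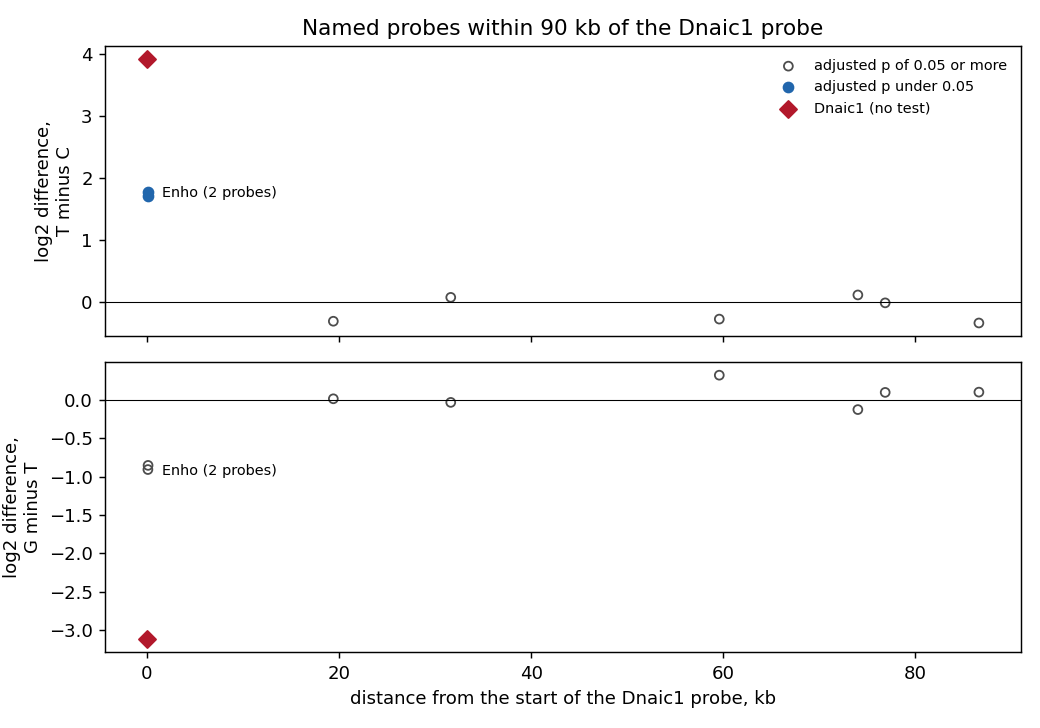
Log2 differences of T from C (upper panel) and of G from T (lower panel) for named probes within 90 kb of the Dnaic1 probe, by distance in kb. The diamond is Dnaic1 and filled points passed the adjusted threshold. In the upper panel Dnaic1 stands at 3.91, the Enho probes stand at 1.70 and 1.77, and the other 6 probes lie between -0.35 and 0.11.

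Finally, the probes with the highest positive correlations with Dnaic1 over the 13 livers were listed, among 2818 named probes above background on at least 4 arrays with a range of at least 1 log2 unit. Correlations below 0, which reached -0.955, were not listed. Both Enho probes came first, with Pearson correlations of 0.899 and 0.897. They were followed by Serpina9, a serine protease inhibitor, at 0.895 and Capn8, a calpain of the stomach lining, at 0.895. Capn8 passed the filter only through group T, so nothing is read from its correlation. Gm4354 had 0.879, Miox, the oxygenase of inositol, 0.871 and the clone AK133468 0.867. Ica1 had 0.860, Wfdc15b 0.851 and Pik3r3, a regulatory subunit of phosphatidylinositol 3-kinase, 0.850. Miox, Ica1 and Pik3r3 reached the range of 1 log2 unit only through group T, so nothing is read from their correlations either.

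None of these is on the motile cilia list used here. The 13 points share 3 group means and are given as a description. Within the 6 livers of group G, the correlations were 0.81 and 0.72 for Enho, 0.74 for Serpina9, 0.59 for Gm4354 and 0.58 for Wfdc15b. They were 0.42 for Miox, 0.09 for Pik3r3, -0.01 for AK133468 and -0.16 for Ica1. None is given for Capn8, which was above background on 1 of the 6 arrays of G and on none of C, and so was compared only through group T, where it is high. Of the motile cilia list, 5 probes could be compared over the 13 livers, and they had correlations of 0.68 for Rsph9, 0.62 for Ccdc164, -0.10 for Dnahc6, -0.28 for Spag1 and -0.40 for Mcidas. Ccdc164 likewise reached the needed range only through group T, so nothing is read from its correlation.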

How the data were processed

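Liver RNA was labelled with Cy3 from an oligo-dT primer and hybridized to Agilent single-colour 8x60K mouse arrays. For every spot, the deposited scanner files give its intensity and that of its background (Feature Extraction 10.7.3.1, positions in mm9). The authors also deposited a table of log2 values, which they made by normexp correction and quantile normalization. The intensities were used here. Mean signal and median background went through normexp (offset 50). The log2 values of 59305 non-control spots were then quantile normalized. Spots with outlier flags were left out, and spots of 1 probe were averaged to 55681 probes. Against the deposited log2 table, the median absolute difference was 0.00282.

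The 13 livers entered 1 limma 3.58.1 fit (R 4.3.3) with a mean per group, and p-values were adjusted by Benjamini-Hochberg over all probes, with a threshold of 0.05. The test was checked on simulated data. The study's methods name the multtest package and a t-test, which was run as an alternative. Genes were named by a rule: the members, list genes past the threshold, the 5 brightest list genes, the 10 probes most like Dnaic1, and probes within 500 kb. An item in that window is not reported here, so the text keeps to 90 kb, a limit set after the values were seen. The members and lists were chosen with earlier results of these data known. List genes were matched by current and older symbols and by RefSeq accession. The median and range of differences describe a list, without a test. Alternatives covered the scaling, the offset, the processed signal, the deposited table, flags, a filter on dim probes, duplicate arrays, slide, replicate number, the t-test and each liver left out. The number of livers limits the precision. The methods name a spin-column kit for RNA, the labels TRIZOL. Promoters are RefSeq's. Protein sequences, and the promoters of Foxj1 and Enho, were not used here.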

Additional observations from a re-analysis of the deposited data

Results flagged for a closer look

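Among 108 groups of livers examined, 2 for each of 54 named probes, 5 held a liver far from the others by Dixon's test, close to the 1 in 20 that chance gives. Liver 2 of group G had a Dnaic2 level of 6.29, above the next liver at 5.89. Heatr2 was at 7.33 in liver 4 of group T and at 7.21 to 7.22 in the others. Capn8, above background on 1 of the 6 arrays of group G, was at 6.85 in liver 4 of that group and at 6.03 to 6.20 in the others. A probe for Ccl27a, a gene with near-identical copies on chromosome 4, so that the copy measured is uncertain, was at 7.39 in liver 3 of group G and at 7.04 to 7.10 in the others. A probe for Gm13298, also from that repeated region, was at 7.61 in liver 1 of group T and at 6.48 to 6.57 in the others.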

How the results depend on the processing

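The direction of Dnaic1 held in all 3 comparisons under every alternative run. Its T against C difference moved from 3.91 to 4.36 with median scaling, 4.44 with the offset of 16 and 5.20 with the processed signal. The processed signal also gave -3.84 for G against T and 1.36 for G against C, and it shifted the median of all probes by -0.74 in T against C and -0.52 in G against C. With each liver left out in turn, Dnaic1 ranged from 3.73 to 4.12 in T against C, from -3.32 to -2.99 in G against T and from 0.62 to 0.92 in G against C. The number of motile cilia probes past the threshold in T against C was 2 with median scaling, 5 with 15 separate arrays, 3 with the RNA code as a block, and 1 with the slide as a term. It ranged from 0 to 1 with a liver left out, being 1 without liver 3 of C or liver 3 of G. Apart from the replicate block, it was 0 under the other alternatives, and it was 0 in the other comparisons under all. The cause was not tested, and the share of all probes past the threshold is not given for the alternatives with a count above 0. Replicate numbers were not taken to pair the samples in the main fit. Deviations of same-numbered arrays correlated between -0.361 and 0.358, over 0.1 in 7 of 13 pairs. Without values for differently numbered arrays, these do not settle whether the numbers pair the samples. With the replicate number as a block, the T against C count was 1, that of Dnahc17, and Dnaic1 differed by 3.95, -3.20 and 0.74. Dnaic2, Dnali1 and Foxj1 passed the threshold under none, though Dnaic2 changed sign in each comparison, and Dnali1 in that of G with C, under some, and Dnaic2 and Foxj1 could not be kept by the filter on dim probes. Signals near background limit what could be seen for these 3 genes.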
